A study of Mus musculus with 8 samples.

Results

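The 9 genes described here form the output loop of the circadian clock: Nr1d1 and Nr1d2 (the REV-ERB repressors), Rora (the ROR activator), Dbp, Tef and Hlf (the PAR-bZIP activators), Nfil3, Bhlhe40 and Bhlhe41. They were taken by name, out of 21938 protein-coding genes outside the mitochondrial genome, and the measurements are the peaks of RNA immunoprecipitation sequencing (RIP-seq) over their gene bodies in the GENCODE M21 annotation of mm10. All 9 were found in the annotation. In each cell the core clock factors BMAL1 (encoded by Arntl) and CLOCK activate the REV-ERB and PAR-bZIP genes. REV-ERB proteins then repress, and ROR proteins activate, genes that carry their shared element, Arntl among them. DBP, TEF and HLF activate genes through D-box elements that NFIL3 represses, and BHLHE40 and BHLHE41 repress genes through the E-boxes that BMAL1 and CLOCK use. In liver the loop passes time of day on to lipid, bile acid and xenobiotic metabolism.

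The antibody recognised NONO, an RNA-binding protein of the nuclear bodies called paraspeckles. Nuclei came from livers of wild type C57BL/6 mice, 14 weeks old, under a cycle of 12 h light and 12 h dark, whose feeding had been limited to the dark phase during a week of entrainment. The fasted group was taken at zeitgeber time (ZT) 10, and the re-fed groups 2 h after re-feeding at ZT14 and 10 h after re-feeding at ZT22, so feeding state and time of day cannot be told apart. A control precipitation used IgG, and the feeding state of those mice is not in the labels. Each of the 4 lists comes from 1 library that pools 2 experiments, set against its own input library. There is therefore no replicate error, no p-value is given, and every difference below is between libraries.

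The NONO libraries held 18275033 to 21091048 tags and the IgG library 18995778. Lists were of unequal length, from 38209 peaks (fasted) to 61737 (2 h), with 50609 at 10 h and 55946 for IgG, and 37.5% of the IgG library lay in 1 peak. Tags are given per 10000000 tags of the library (normalised tags), and ranges in parentheses are exact 95% Poisson intervals, which cover counting error only. A gene with no listed peak was below the authors' thresholds and is not shown to be free of tags. NONO peaks without even 1 bp of overlap with the IgG list are called IgG-free. Of 10 hepatocyte marker genes, 4 (fasted), 5 (2 h), 6 (10 h) and 8 (IgG) carried a peak. Cps1, the first enzyme of the urea cycle, was among them in every list, while Apoa1 and Serpina1a were in none and Alb had none in the fasted and 2 h lists. Markers of other liver cells with a peak in the 4 lists numbered 2 to 4 of 7 for Kupffer cells, 3 to 4 of 7 for endothelium, 2 to 5 of 6 for stellate cells, 0 of 5 for cholangiocytes and 1 of 6 for lymphocytes and erythroid cells. Summed normalised tags ran from 5204.8 to 21262.3 over the hepatocyte markers in the 4 lists, 23.8 to 74.5 over those of Kupffer cells, 566.3 to 1373.2 over endothelium and 44.8 to 136.2 over lymphocytes and erythroid cells. Over stellate cell markers they ran from 46.0 to 82.1 in the NONO lists and were 2511.3 in IgG. Single genes made up much of some sums. Reln held 2081.12 of the stellate tags in IgG, and Cps1 3763.2 of the fasted hepatocyte tags. Ptprc held all tags of the lymphocyte and erythroid markers. The part of such cells in the values below was not tested, and in a bulk preparation fewer cells of a type and less RNA per cell cannot be told apart.

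Most member peaks were intronic. The stretches of annotated exon that peaks of Nr1d2, Dbp and Hlf reached are shown first because they place those peaks in the RNA. The sequences are from GENCODE M21 transcripts on mm10 and read 5′ to 3′ along the RNA. The largest Nr1d2 peak at 2 h (101.9 normalised tags) ran from intron 1 into the first 32 bases of exon 2 (chr14:18222222-18222253, minus strand). The 2 Dbp peaks reached different coding exons, exon 2 in the fasted list (chr7:45706606-45706656, plus strand) and exon 4 in the 10 h list (chr7:45709665-45709711, plus strand).
Nr1d2 exon 2 start: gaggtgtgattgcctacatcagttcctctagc
Dbp exon 2 part: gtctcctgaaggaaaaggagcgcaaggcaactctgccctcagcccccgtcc
Dbp exon 4 part: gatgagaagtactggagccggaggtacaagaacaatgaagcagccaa
The largest peak over any of the 9 genes lay in Hlf intron 2 at 2 h (286.4 normalised tags), and its upstream end covered 288 bases of the first exon of a non-coding Hlf transcript (chr11:90381409-90381696, minus strand). Capitals mark the longest stretch that occurs more than once in it, 40 bases in 2 copies; reads that fall wholly inside such a repeat cannot be placed in one copy.
Hlf non-coding exon 1 part: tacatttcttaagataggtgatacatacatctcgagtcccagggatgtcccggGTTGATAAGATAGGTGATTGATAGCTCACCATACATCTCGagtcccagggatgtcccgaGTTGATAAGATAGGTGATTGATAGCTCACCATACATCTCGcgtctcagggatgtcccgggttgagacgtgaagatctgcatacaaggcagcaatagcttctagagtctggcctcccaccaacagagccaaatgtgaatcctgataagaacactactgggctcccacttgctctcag

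Of the 9 genes, 6 carried at least 1 peak in the fasted list, 8 at 2 h, 6 at 10 h and 6 in the IgG list. Among all protein-coding genes the shares with a peak were 28.4% (fasted), 33.9% (2 h), 32.7% (10 h) and 34.7% (IgG). With IgG-free peaks only, 5, 6 and 5 genes remained in order of time, where 26.4%, 31.3% and 30.0% of protein-coding genes had one. The counts differed by gene length. The 5 members longer than 10 kb (Nr1d2, Rora, Tef, Hlf and Nfil3) had a peak in every list, IgG included, while 41.2% to 47.7% of all genes of that length did. Of the 4 members up to 10 kb (Nr1d1, Dbp, Bhlhe40 and Bhlhe41), 1 had a peak in the fasted list, 3 at 2 h, 1 at 10 h and 1 in IgG, against 5.02%, 9.08%, 8.34% and 10.9% of genes of that length.

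**Figure D1:**
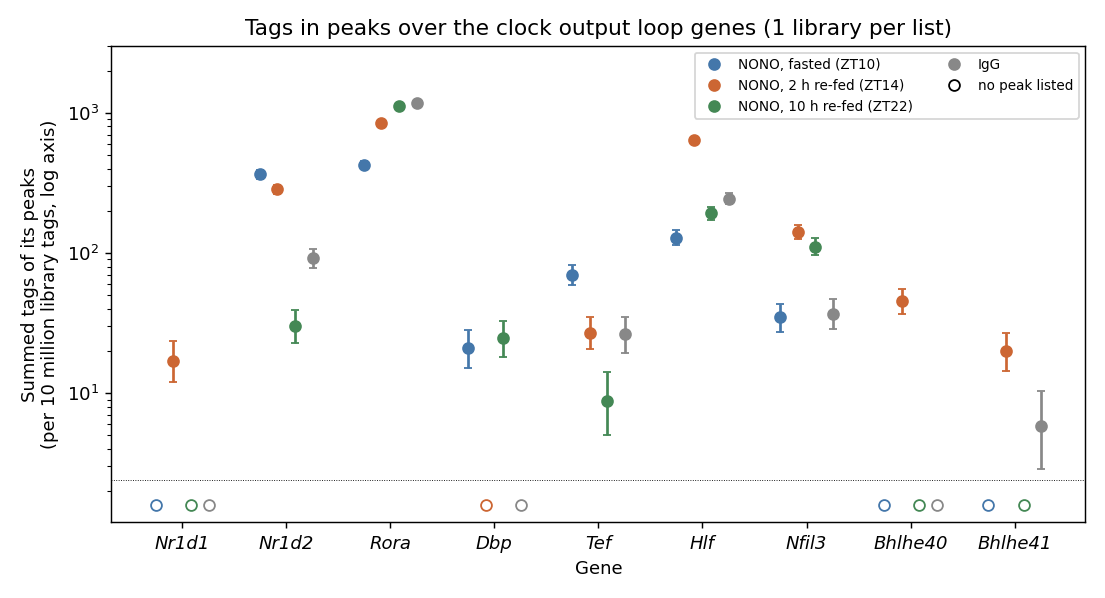
Summed normalised tags (per 10000000 library tags, log axis) of the peaks over each gene, with 1 point per list and exact 95% Poisson intervals; open circles under the dotted line have no listed peak and no value on the axis. Rora has the most tags in the fasted, 2 h, 10 h and IgG lists alike, Nr1d2 is highest in the fasted list at 364.2, and Hlf is highest at 2 h at 636.4.

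Together the members held 35 peaks in the fasted list, 56 at 2 h, 59 at 10 h and 108 in IgG, and Rora alone accounted for 20, 33, 47 and 88 of them. The share of member peaks that were IgG-free was 60.0% (fasted), 48.2% (2 h) and 42.4% (10 h), against 66.3%, 60.7% and 60.5% of all peaks in those lists. Their share of the members' tags was 53.4%, 25.7% and 28.0%. Of the 258 member peaks in the 4 lists, 251 had their midpoint in an intron of the gene's longest coding transcript, 6 in an exon of it and 1 outside it. By another measure, the share of midpoints outside every annotated exon was 100% (fasted), 92.9% (2 h) and 98.3% (10 h). It was 92.8% to 93.1% over all protein-coding genes. This share also counts the Bhlhe40 peak, whose midpoint lies outside the gene. The authors' median fold over input was 2.45, 2.89 and 3.06 for member peaks in order of time, and 4.73 in IgG. For all peaks over protein-coding genes it was 2.8, 3.09 and 2.82, and 4.16 in IgG.

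**Figure D2:**
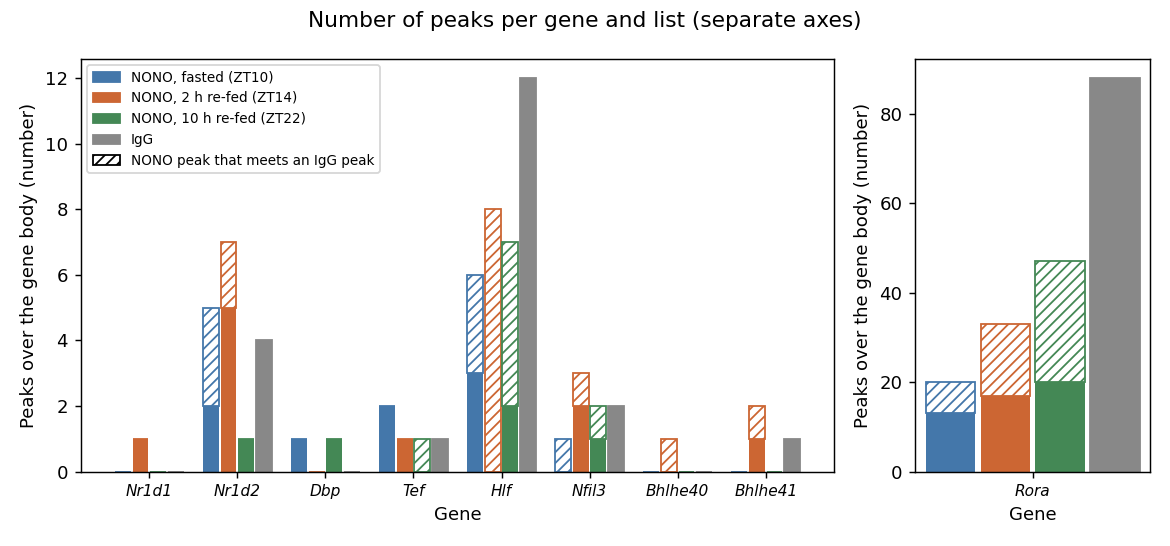
Number of peaks over each gene body per list; filled bars are IgG-free NONO peaks, hatched bars NONO peaks that meet an IgG peak, and grey bars IgG peaks. Rora has its own axis, with 88 IgG peaks against 20, 33 and 47 NONO peaks, and all 8 Hlf peaks at 2 h meet an IgG peak.

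The first comparison asked how NONO-bound RNA differed 2 h after re-feeding from the fasted state. A gene was counted where its summed tags were at least 2 times those of the other list, or where it had a peak in that list only. By this rule 5 of the 9 members had more tags at 2 h than in the fasted list (Nr1d1, Hlf, Nfil3, Bhlhe40 and Bhlhe41), and 54.2% of 8084 genes with a peak in either list did. The opposite held for Dbp and Tef, 2 of 9, against 13.3% of genes. The members' 5 of 9 is thus near the background share. Between 10 h and the fasted state, Rora and Nfil3 had more tags at 10 h (2 of 6, against 43.7% of 7953 genes), and Nr1d2 and Tef had more in the fasted list (2 of 6, against 16.0%). Between the re-fed times, 6 of 9 had more tags at 2 h (Nr1d1, Nr1d2, Tef, Hlf, Bhlhe40 and Bhlhe41), where 32.3% of 8421 genes did, and Dbp alone had more at 10 h (1 of 9, against 21.1%). The comparisons share libraries in pairs, and 4 of these 6 genes (Nr1d1, Tef, Bhlhe40 and Bhlhe41) rest on at most 2 peaks at 2 h. With a fold over input of at least 3 in place of the authors' 2, the count of members higher at 2 h than at 10 h was 2. The count of members higher at 2 h than fasted was also 2. The shares of all genes above are for a fold of 2, so the counts at a fold of 3 have no share to be read against.

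Nr1d1 encodes REV-ERBα, the haem-binding repressor of Arntl. Its body spans 7402 bp (chromosome 11, 98767932 to 98775333, minus strand). It had a single peak, at 2 h, with 17.1 normalised tags (12.0 to 23.6; 36 tags) over 806 bp of intron 1, centred 2.06 kb from the gene start, and no peak in the fasted, 10 h or IgG list. The peak stood at 21.2 tags per kb against 8.04 per kb in its input, a fold of 2.64. It was IgG-free. Nr1d1 ranked 5917 by tags among the 7437 genes with a peak at 2 h. The Thra gene overlaps part of the Nr1d1 body on the other strand, but no other gene lay under this peak.

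Nr1d2 encodes REV-ERBβ, which acts on the same elements (chromosome 14, 18204054 to 18239127, minus strand, 35.1 kb). It carried 364.2 normalised tags (339 to 391) in 5 peaks in the fasted list, 284.0 (262 to 308) in 7 peaks at 2 h, 30.1 (22.7 to 39.2) in 1 peak at 10 h and 91.56 (78.5 to 106) in 4 IgG peaks. The fasted and 2 h values were both above the IgG value and the 10 h value was below it, with no overlap of the counting intervals. Covered length went another way, with 4484 bp fasted, 7956 bp at 2 h, 626 bp at 10 h and 4103 bp in IgG. Density was therefore 81.2 tags per kb of peak in the fasted list, 35.7 at 2 h, 48.1 at 10 h and 22.3 in IgG. Input density in the same peaks moved alongside, at 37.9, 14.1, 20.8 and 10.1 tags per kb, so that tags over input lay between 2.14 and 2.53 in all 4 lists. Peaks with a fold below 2 were not listed, so the lower bound of this ratio was set by peak calling. What part the amount of Nr1d2 RNA in the input has in the difference between the lists was not tested.

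The peaks over Nr1d2 also differed in whether IgG met them. In the fasted list 66.5 of the 364.2 normalised tags (18.3%) were in the 2 IgG-free peaks, and the largest fasted peak, of 189.7 normalised tags, touched an IgG peak of 18.4. At 2 h 242.3 of 284.0 (85.3%) were IgG-free. Both lists had IgG-free peaks in 2 shared regions of intron 1, one running into exon 2 (49.9 normalised tags fasted and 101.9 at 2 h) and one about 3 to 4 kb from the start (16.6 and 40.8). IgG-free tags were thus higher at 2 h than in the fasted list by the 1 bp rule, while total tags were lower. That rule split 1 site between the lists. A fasted peak of 49.0 normalised tags, 5270 to 5770 bp from the start, just met an IgG peak at 5765 to 6265 bp. The 2 h peak of 33.2 at 4960 to 5735 bp just missed it and counted as IgG-free. The single 10 h peak lay wholly in the last exon, 33.6 kb from the start, and overlapped no peak of another list.

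**Figure D3:**
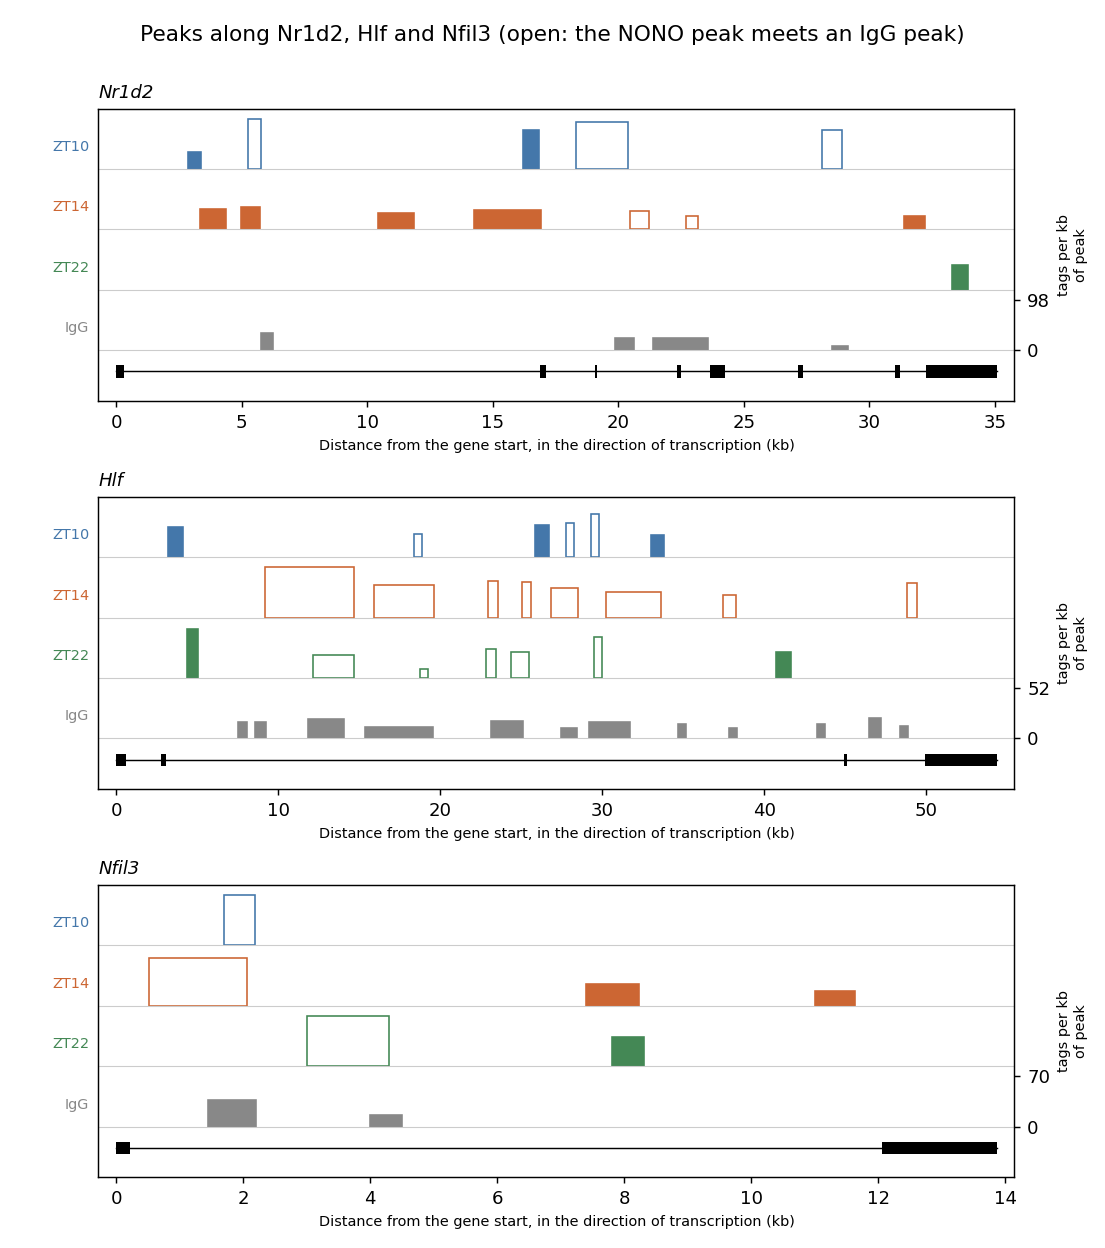
Peaks along Nr1d2, Hlf and Nfil3 by distance from the gene start in kb, with bar height in normalised tags per kb of peak, 1 track per list, open bars for NONO peaks that meet an IgG peak, and exons of the main coding transcript in black. The Nr1d2 peak at 10 h stands alone in the last exon, the Hlf peaks at 2 h are wide and open, and the largest Nfil3 peaks lie near the gene start.

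Rora encodes RORα, the activator that competes with REV-ERB for the same DNA elements. It is the longest member, 734 kb (chromosome 9, 68653786 to 69388246, plus strand). It carried 426.46 normalised tags (399 to 455) in 20 peaks fasted, 839.74 (801 to 880) in 33 peaks at 2 h, 1123.62 in 47 peaks at 10 h and 1174.43 in 88 IgG peaks. All 3 NONO totals were below the IgG total, and at 10 h the interval of 1080 to 1170 met that of IgG, 1130 to 1220. Leaving the most tagged peak out of each library's total raised the IgG value to 1878.62. Density was 31.4 tags per kb fasted, 26.6 at 2 h, 30.6 at 10 h and 14.6 in IgG, with 12.2, 9.48, 12.4 and 3.51 in the inputs. Covered length was 13560, 31514, 36704 and 80261 bp in that order, so the NONO lists differed more in covered length than in density over Rora. IgG-free peaks numbered 13, 17 and 20, and their tags came to 324.17, 183.06 and 286.29, an order in which the 2 h list was lowest.

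Peaks were unevenly placed along Rora. Intron 1 makes up 73.8% of the gene and held 9 peaks fasted, 13 at 2 h, 25 at 10 h and 64 in IgG, all in its first 400 kb. No list had a peak between 400 and 600 kb from the start. A second coding transcript of Rora starts 636 kb downstream of the first, at position 69289682. Upstream of that start the density of peaks was 1.57 per 100 kb fasted, 2.20 at 2 h, 4.09 at 10 h and 10.1 in IgG. Downstream of it, over 98.6 kb, it was 10.1, 19.3, 21.3 and 24.3 per 100 kb. Both sets of densities come from lists of unequal length. Peaks upstream were also smaller, with median normalised tags of 7.13, 6.63 and 8.21 in order of time, against 26.9, 25.1 and 25.7 downstream. Their median fold over input was higher, at 5.57, 5.47 and 3.79 upstream against 2.29, 3.01 and 2.20 downstream, over inputs of 3.54, 2.35 and 4.22 tags per kb upstream and 17.5, 11.8 and 19.3 downstream. NONO tags per kb downstream were 40.7, 31.2 and 42.9 against 17.2 in IgG, while upstream they were 16.3, 13.0 and 16.2 against 13.2 in IgG. With the most tagged peak left out of each library's total, IgG had 21.1 tags per kb upstream, above all 3 NONO lists (13.0 to 16.4), and 27.5 downstream, below them (31.2 to 43.0).

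**Figure D4:**
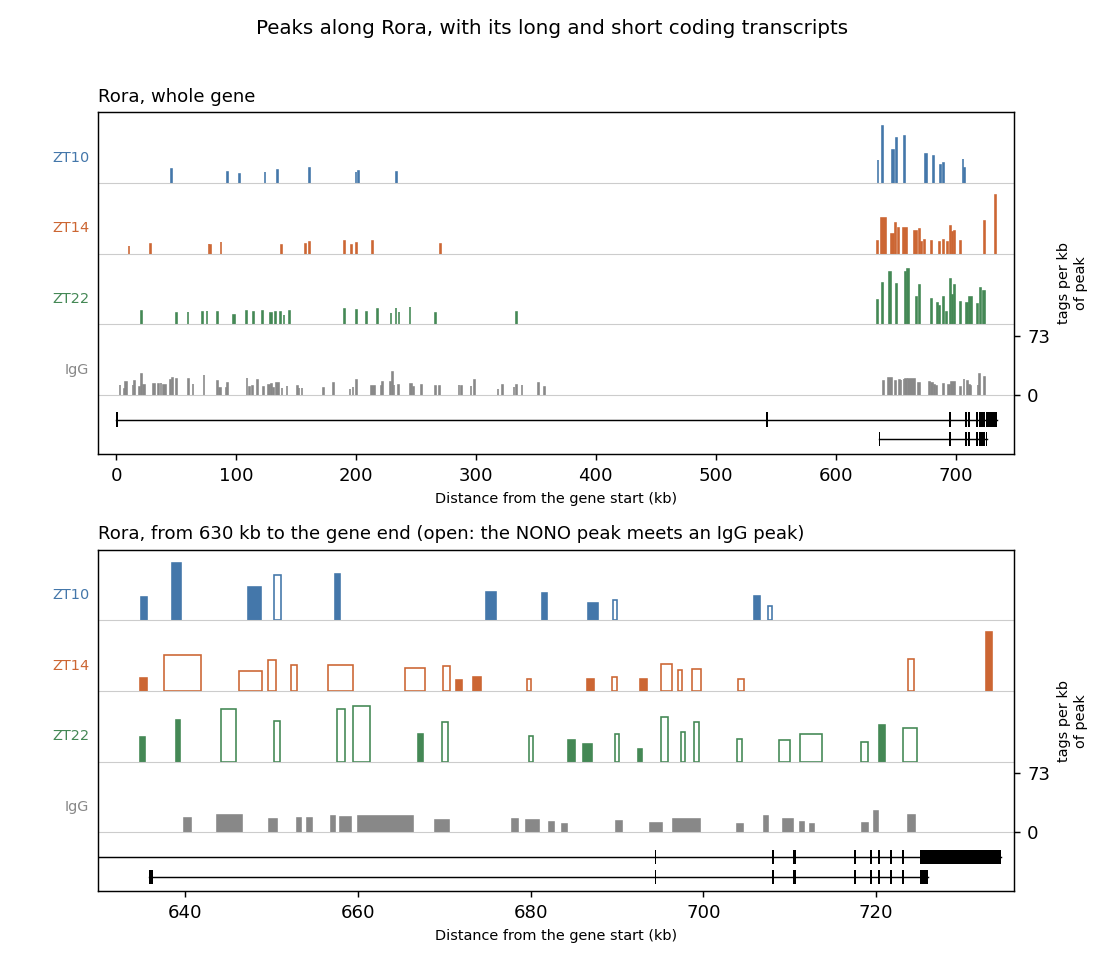
Peaks along Rora by distance from the gene start in kb, the whole gene above and the stretch from 630 kb to the end below, with bar height in normalised tags per kb of peak and the long and short coding transcripts in black. Low bars fill the first 400 kb, none lies between 400 and 600 kb in any list, and the NONO bars are tallest downstream of the short transcript's start at 636 kb.

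A group of peaks ended just upstream of the short transcript's start. It held 18.1 normalised tags fasted (ending 330 bp before the start), 12.3 at 2 h (246 bp) and 19.2 at 10 h (471 bp), was IgG-free each time and had folds of 2.45, 8.25 and 2.85. The counting intervals were 12.8 to 24.8, 8.05 to 18.1 and 13.3 to 26.6, which overlap. Rora had 1 other region with IgG-free peaks at all 3 times, 687 kb from its start, with 24.7 normalised tags fasted, 11.4 at 2 h and 23.0 at 10 h. These were the only such regions among the 9 genes. In the downstream stretch the fasted list was mainly IgG-free, 7 of 10 peaks, whereas 5 of 19 were at 2 h and 6 of 21 at 10 h. Those peaks covered 8428 bp fasted, 23669 bp at 2 h and 19797 bp at 10 h, and wide peaks meet IgG more readily. The largest Rora peaks were 74.6 normalised tags fasted (639 kb, IgG-free), 192 at 2 h (640 kb, meeting IgG) and 136 at 10 h (660 kb, meeting IgG). At 2 h an IgG-free peak of 53.1 normalised tags lay in the last exon at 733 kb, where no other list had one. The non-coding gene Gm15511 lay under 16 Rora peaks of the 4 lists, between 695 and 710 kb from the start, which cannot be assigned to either gene since the peaks carry no strand. Without them Rora kept its order, with 398.43, 745.84 and 986.22 normalised tags.

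Dbp encodes the D-box activator with the strongest daily rhythm among the PAR-bZIP genes of liver (chromosome 7, 45705088 to 45710203, plus strand, 5116 bp). It had 20.9 normalised tags (15.2 to 28.1; 44 tags) fasted, 24.6 (18.0 to 32.9; 45 tags) at 10 h, and no peak at 2 h or in IgG. The fasted and 10 h intervals overlap, but the peaks did not, since the first ran from intron 1 into exon 2 and the second from intron 3 into exon 4, each ending at the last base of the stretch printed above. Fold over input was 2.21 fasted and 3.66 at 10 h, over inputs of 14.4 and 6.74 tags per kb. The 10 h peak also touched the body of Sphk2 on the other strand, and without it Dbp had a peak only in the fasted list.

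Tef encodes thyrotroph embryonic factor, a second D-box activator (chromosome 15, 81802421 to 81826863, plus strand, 24.4 kb). It had 69.9 normalised tags (59.0 to 82.1) in 2 peaks fasted, 27.0 (20.5 to 35.0) in 1 peak at 2 h, 8.76 (5.0 to 14.2) in 1 peak at 10 h and 26.3 (19.5 to 34.7) in 1 IgG peak. The fasted value was the highest, and the 2 h value could not be set apart from IgG by its interval. All fasted and 2 h peaks were IgG-free, and they met in intron 3 (36.6 normalised tags fasted and 27.0 at 2 h) at their edges. The 10 h peak lay in intron 1 on the IgG peak. Density was 49.7 tags per kb fasted, 54.0 at 2 h, 17.5 at 10 h and 33.5 in IgG, with 21.3, 26.9, 5.04 and 14.8 in the inputs.

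Hlf encodes hepatic leukaemia factor, the third activator of the family (chromosome 11, 90336536 to 90390895, minus strand, 54.4 kb). It carried 128.4 normalised tags (114 to 145) in 6 peaks fasted, 636.4 (603 to 671) in 8 peaks at 2 h, 192.62 (173 to 214) in 7 peaks at 10 h and 243.74 (222 to 267) in 12 IgG peaks. The 2 h value was above the other 3, and the fasted and 10 h values were below IgG. Covered length differed more than density. It was 16842 bp at 2 h against 4093 bp fasted, 6840 bp at 10 h and 15867 bp in IgG, while density was 31.4, 37.8, 28.2 and 15.4 tags per kb in order of time and then IgG. Input density in those peaks was 12.2, 16.4, 12.0 and 4.72 tags per kb. None of the 8 peaks at 2 h was IgG-free, compared with 3 of 6 fasted and 2 of 7 at 10 h. By the 1 bp rule a wide peak meets IgG more readily than a narrow one. Peaks covered 31.0% of the gene length at 2 h, 7.53% fasted, 12.6% at 10 h and 29.2% in IgG.

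Most of the Hlf tags at 2 h lay in the long intron 2. The peak of 286.4 normalised tags (264 to 310) covered 5503 bp there, from about 9 to 15 kb from the start, at 52.0 tags per kb and a fold of 2.26. In the same place the 10 h list had 61.3 normalised tags (50.5 to 73.7) over 2572 bp at 23.8 per kb. IgG had 2 peaks there, of 43.7 (34.8 to 54.2) over 2211 bp at 19.8 per kb and of 11.1 (6.84 to 16.9) over 661 bp at 16.8 per kb. The smaller IgG peak overlapped only the start of the printed exon stretch, before its capitals. The fasted list had no peak over the 5503 bp of the 2 h peak. Next to it a 2 h peak of 124.2 normalised tags over 3685 bp met a fasted peak of 11.9, a 10 h peak of 4.92 and an IgG peak of 48.4. The IgG-free Hlf peaks lay elsewhere, among them a fasted peak of 28.5 normalised tags and a 10 h peak of 32.3, both close to 4 kb from the start and not overlapping.

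Nfil3 encodes the D-box repressor that opposes the PAR-bZIP activators (chromosome 13, 52967209 to 52981073, minus strand, 13.9 kb). It had 34.7 normalised tags (27.2 to 43.6) in 1 peak fasted, 140.8 (125 to 158) in 3 peaks at 2 h, 111.0 (96.3 to 127) in 2 peaks at 10 h and 36.82 (28.7 to 46.6) in 2 IgG peaks. Both re-fed values were above the fasted and IgG values, which overlapped each other, and the intervals of the re-fed values met at their edges. With the most tagged peak left out of each library's total, IgG had 58.9, above the fasted 34.8 and its interval and still below both re-fed values. Every Nfil3 peak had its midpoint in the single intron. The largest at 2 h (102.4 normalised tags over 1533 bp) lay over the fasted and the larger IgG peak, 1.29 kb from the start. The largest at 10 h (90.8 over 1297 bp) lay 3.65 kb from the start, where IgG had 8.42 and the fasted and 2 h lists had no peak. A further region at about 8 kb was IgG-free at both re-fed times, with 25.1 normalised tags at 2 h and 20.2 at 10 h. Density was 69.4 tags per kb fasted, 47.0 at 2 h, 61.8 at 10 h and 29.2 in IgG, and the inputs had 28.4, 18.3, 28.1 and 10.8.

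Bhlhe40 and Bhlhe41 encode the repressors DEC1 and DEC2. Bhlhe40 (chromosome 6, 108660629 to 108666925, plus strand, 6297 bp) had 1 peak, at 2 h, of 45.5 normalised tags (36.9 to 55.6) over 1286 bp. Only 86 bp of that peak lay in the gene, at its downstream end, and the midpoint was outside it, where IgG had a peak of 7.37 normalised tags. Bhlhe41 (chromosome 6, 145858243 to 145865558, minus strand, 7316 bp) had 2 peaks at 2 h, of 11.4 and 8.53 normalised tags, both in its last exon. Their sum was 19.93 (14.4 to 26.9), and IgG had 5.79 (2.89 to 10.4) in 1 peak that overlapped the larger. Neither gene had a peak in the fasted or 10 h list. The density of the Bhlhe41 peaks, 15.2 tags per kb over an input of 3.80, was the lowest of any member in the 2 h list.

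**Figure D5:**
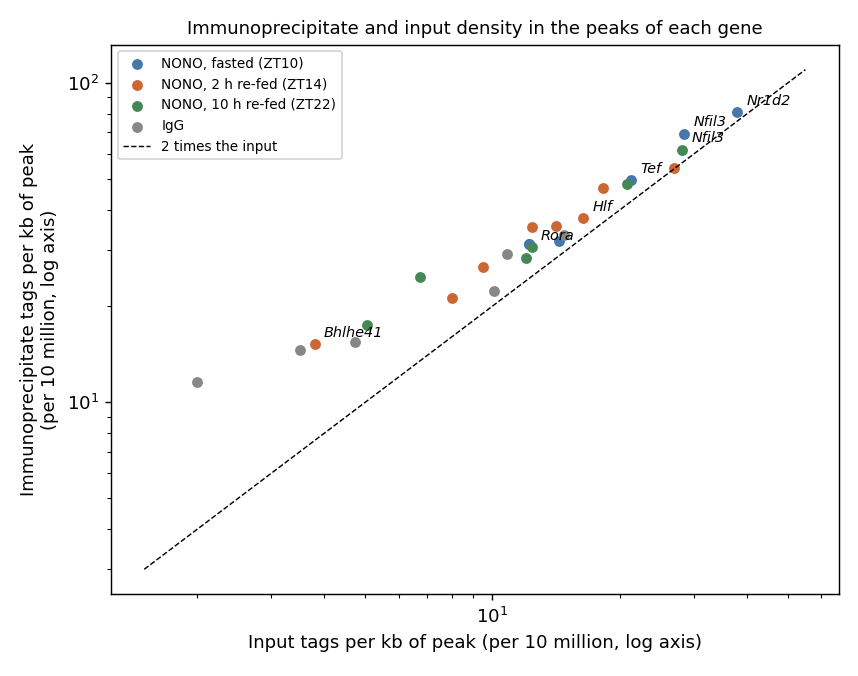
Density of immunoprecipitate tags against density of input tags in the peaks of each gene (both per kb of peak and per 10000000 library tags, log axes), with 1 point per gene and list that has a peak and a dashed line at 2 times the input. Density runs with the input, from 11.6 tags per kb over 2.0 for Bhlhe41 in IgG to 81.2 over 37.9 for fasted Nr1d2. Peaks had to reach 2 times their input to be listed, so no point can lie below the line and the relation is partly set by peak calling.

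The pattern of each gene over the 4 lists was set beside all protein-coding genes by the Euclidean distance of log2(summed tags + 10), over 4 libraries. This is a description of these lists only. Closest to Nr1d2 were Mme (distance 0.714) and Hadha (1.15), the latter with 187.9, 237.94, 44.8 and 63.74 normalised tags in order of time and then IgG. Closest to Rora were Plg (0.477) and Numb (0.555), and to Hlf Ttc7b (0.298) and Uso1 (0.375). Ttc7b had 127.38, 774.94, 205.79 and 252.08 normalised tags. Nfil3 was most like Gripap1 (0.228) and Zfyve16 (0.285), and Tef most like Sall1 (0.503) and Zfp992 (0.564). Dbp, with few tags, was most like Hmgxb4 (0.314) and Kctd6 (0.322), and Bhlhe41 most like Uhrf1bp1 (0.0543) and Zdhhc7 (0.0861).

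Among 20 other clock genes, 13 had a peak in the fasted list, 13 at 2 h, 15 at 10 h and 15 in IgG, and 10, 13 and 11 had an IgG-free one. The median of their summed normalised tags was 38.7 fasted, 74.2 at 2 h, 48.7 at 10 h and 43.4 in IgG. By the rule used above, 7 of 14 had more tags at 2 h than fasted, against 54.2% of all genes. The reverse held for 1 of 14, against 13.3%. For 10 h over fasted the count was 6 of 16 (43.7% of all genes), and for fasted over 10 h it was 3 of 16 (16.0%). For 2 h over 10 h it was 6 of 15 (32.3%), and for 10 h over 2 h 4 of 15 (21.1%). Most peaks lay over Ncor1, the corepressor that REV-ERB recruits, with 794.51 normalised tags fasted, 2461.61 at 2 h, 1507.4 at 10 h and 1112.31 in IgG. Clock had 289.06, 1244.9, 696.65 and 307.98, and its 2 h and 10 h values were above IgG. Cry1, a repressor of BMAL1 and CLOCK whose gene REV-ERB also represses, had 64.6, 324.4, 326.6 and 136.88. Btrc, a ubiquitin ligase subunit that acts on PER proteins, had 115.02, 115.65, 117.6 and 41.07, level over the 3 times. Arntl, the REV-ERB and ROR target, had no peak fasted, 46.93 normalised tags in 7 peaks at 2 h, 345.32 in 16 peaks at 10 h and 27.37 in 4 IgG peaks, and 7 and 13 of its NONO peaks were IgG-free. Npas2, a CLOCK paralogue and another REV-ERB and ROR target that was singled out after its values were seen, had 586.52 normalised tags in 23 peaks at 10 h, all IgG-free, no peak at the other times and 8.95 in IgG.

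Among 20 clock output and target genes of liver, 11 had a peak fasted, 12 at 2 h, 15 at 10 h and 14 in IgG. IgG-free peaks lay over 10, 12 and 13 in order of time. More tags at 2 h than fasted were found for 6 of 13 (54.2% of all genes), and the reverse for 2 of 13 (13.3%). More at 10 h than fasted were found for 6 of 15 (43.7% of all genes), and the reverse for 3 of 15 (16.0%). More at 2 h than at 10 h were found for 5 of 15 (32.3% of all genes), and the reverse for 4 of 15 (21.1%). Ppara, the fasting-activated nuclear receptor, had 945.7 normalised tags fasted, 1789.3 at 2 h, 599.6 at 10 h and 1017.5 in IgG. Lpin1, a phosphatidate phosphatase, had 160.2, 199.65, 168.52 and 146.92, all within a narrow range that includes IgG. Nampt, the rate-limiting enzyme of NAD salvage, had no peak fasted and 223.31 at 2 h, 324.35 at 10 h and 231.1 in IgG. Por, which passes electrons to cytochromes P450 and is a PAR-bZIP target, had 136.0, 112.8, 8.76 and 219.52, with the 10 h value lowest. Noct, a rhythmic gene of lipid metabolism, had 305.3, 1404.36, 379.7 and 885.5, highest at 2 h.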

How the data were processed

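RIP-seq libraries (8, as 4 immunoprecipitates each with an input) were processed by the authors on mm10 with STAR 2.4.0k, HOMER and FastQC 0.11.2, per the submitters' processing notes. Per the file headers, peak calling by HOMER pooled the strands and used 500 bp windows, merged up to 1000 bp apart, at 2-fold over input. The headers give a tag threshold of 11 (8 in the IgG list). That threshold is not a minimum of the tag counts given here. The smallest Hlf peak at 10 h, for example, held 9 tags and had a HOMER peak score of 11. The deposited signal is tags per 10000000 tags of the library (a coverage measure). The deposited fold is a ratio the authors took between immunoprecipitate and input, and the deposited score is HOMER's peak score, per the file headers. The authors scaled the input to the immunoprecipitate or the reverse, depending on the list, so input was put on 1 scale as normalised tags times control tags over total tags, and the fold recomputed from these matched the deposited fold in 100% of peaks.

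A peak belonged to a gene when it overlapped the body by 1 bp, and it counted whole. Peaks carry no usable strand, so overlapping genes are not separated. Starts are printed as the files give them. With 1 library per group no test was made, and counts are set beside all protein-coding genes. Named were all 9 members, their largest peaks, the 2 genes nearest in pattern (for members with peaks in at least 2 lists), genes under member peaks and, of each clock list, the 5 with most peaks. The members and lists were chosen with earlier results of these data known. Overlap counting was tested on simulated data with 1000 planted peaks over 3000 genes. Alternatives changed the overlap rule, gene ends, fold, list length, IgG threshold, the margin for IgG-free and the library total. Scripts ran in Python 3.11.15 with scipy 1.17.1, pandas 2.3.3 and numpy 2.4.6. Not every exon stretch under a member peak is reported here.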

Additional observations from a re-analysis of the deposited data

How the results depend on the processing

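No paired analysis was possible because every group is a single library. Of the alternatives, a fold over input of at least 3 moved the most counts. Members with a peak then numbered 2 fasted and 3 at 2 h, and with an IgG-free peak 2 fasted, 2 at 2 h and 3 at 10 h. These IgG-free counts are against an IgG list cut at the same fold. The 10 h count thus includes Tef, whose peak (fold 3.47) meets an IgG peak of fold 2.26 that the cut removes. Against the full IgG list that Tef peak is not IgG-free. Members with more tags were 2 (2 h over fasted), 0 (fasted over 2 h), 1 (fasted over 10 h), 2 (10 h over 2 h) and 2 (2 h over 10 h). Higher at 10 h than fasted were Rora, Dbp and Tef, in place of Rora and Nfil3 at the authors' fold. Tef, highest in the fasted list at the authors' fold, kept only its 10 h peak. The shares of all genes given above are for the authors' fold of 2, so the counts at a fold of 3 have none beside them. Nr1d1, Nr1d2, Nfil3 and Bhlhe40 had no peak at any time at that fold. Without peaks that touch another gene, the count of members higher at 10 h than at 2 h was 0. No other alternative moved these counts by more than 1.5 times. The Bhlhe40 peak was lost where the midpoint or most of the peak had to lie in the gene, and the Nr1d1 peak was lost with lists cut to 38209 peaks. Leaving the most tagged peak out of each library total raised IgG tags to 146.46 for Nr1d2, 389.89 for Hlf, 58.9 for Nfil3 and 42.07 for Tef, the last above Tef's 2 h value. Depth limits single peaks, which rest on as few as 9 tags (Hlf at 10 h) in the NONO lists, and the only Nr1d1 peak rests on 36.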

Other observations

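Some peaks lay within 10 kb of a member but outside its body. Downstream of Dbp, under the Sphk2 gene, an IgG-free peak 3.6 kb away held 21.9 normalised tags in the fasted list (fold 3.78), and an overlapping peak held 13.7 at 10 h (fold 3.61). The 2 h list had no peak there and none in the Dbp body. At 2 h a peak of 6.64 normalised tags lay 376 bp upstream of Dbp under Car11. Upstream of Bhlhe40, a 2 h peak of 46.0 normalised tags met an IgG peak of 33.7 over the non-coding genes 0610040F04Rik and Gm17055. An IgG-free peak of 7.59 normalised tags lay 208 bp downstream of Bhlhe41 at 2 h. The largest peak near any member was an IgG peak of 156.4 normalised tags 7973 bp downstream of Tef, with no NONO peak over it.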
